A study of Mus musculus with 2 samples.

Results

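The synaptic vesicle release machinery was examined as 46 listed genes out of 21938 protein-coding gene records of the GENCODE M21 annotation on 21 mouse chromosomes. The genes were taken by name in 4 classes: 21 genes of vesicle proteins and their calcium sensors and Rab3 partners, 9 genes of SNAREs and their regulators, 12 genes of the active zone and 4 genes of endocytosis. DNase-seq, which cuts nuclear DNA with DNase I where it is exposed and maps the cuts, was carried out on frontal cortex of female B6CASTF1/J mice, F1 hybrids of the B6 and CAST strains, at 36 days of age. The labels give 1 group of 2 biological replicates with no treatment, so no comparison between conditions exists. Each library has its own tissue record, but the same donor label stands on both, and the sources used here do not say if the tissue was of separate animals.

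A nerve terminal stores transmitter in synaptic vesicles that dock and are primed at the active zone, a protein scaffold on the presynaptic membrane. Calcium entry acts on synaptotagmins, and SNARE proteins of the vesicle and of the plasma membrane then zip together and fuse the membranes. NSF and its SNAP adaptors take the spent SNARE complexes apart, and endocytic proteins recover the vesicle membrane. The core of this machinery is common to excitatory and inhibitory synapses, while some family members are used by particular neurons. In bulk tissue, fewer cells with an open site and less opening per cell cannot be told apart.

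Each library had a main list of peaks (29700 in replicate 1 and 66512 in replicate 2), a longer list (56015 and 117579) and a list of footprints, short protected stretches inside open sites (112826 and 250543). A promoter peak is a peak that overlaps the 500 bp to either side of any annotated start site (TSS) of the gene. As a check of the tissue, 3 of 8 cortical neuron marker genes had a main-list promoter peak in both libraries (Tbr1, Neurod6 and Tubb3). In replicate 2 it was present at 7 of 8, all but Slc17a7. Of all protein-coding genes 50.8% had such a peak in both libraries and 60.0% in replicate 2, so 3 of 8 is not above the background. Astrocyte markers had it in both libraries for 3 of 4 genes, and oligodendrocyte markers for 1 of 4 and in replicate 2 for 3 of 4. Markers of inhibitory neurons, microglia, blood vessels, liver and skeletal muscle had it in both for 0 of 4 genes each, and in replicate 2 the liver gene Alb had it with a signal of 0.379. Inhibitory neurons, which the tissue should hold, had no marker promoter called in either library (Gad1, Gad2, Dlx1 and Lhx6).

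Most of the machinery had an open promoter. A main-list promoter peak was present in both libraries for 36 of the 46 genes (78.3%), against 50.8% of all protein-coding genes. The peak was present in replicate 1 for 37 genes (80.4%, against 51.0% of all) and in replicate 2 for 44 genes (95.7%, against 60.0%). Replicate 2 alone had it at 8 genes (17.4%, against 9.19%): Syngr3, Sv2a, Syt2, Rph3a, Vamp2, Cplx2, Rims3 and Bsn. Replicate 1 alone had it at Sv2b. Neither library had it at 1 gene, Syt7, while 39.8% of all genes had it in neither. The longer list gave a promoter peak in both libraries for 44 genes (95.7%, against 57.9%). With replicate 2 shortened to its 29700 highest peaks, 34 genes had it in both (73.9%, against 48.4%).

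The DNA under these promoters is shown first where overlapping footprints were listed in both libraries and held all or part of a motif. There the open site can be shown letter by letter. Of 295 replicate 2 footprints in the promoter peaks of the 46 genes, 110 (37.3%) overlapped a replicate 1 footprint, close to the 35.8% over all protein-coding genes. Of these 110 footprints, 10 held all or part of 1 of the 13 searched motifs, a share of 9.09% beside 9.50% of the 28979 such footprints at all genes. At Unc13b and in the first Erc1 stretch the motif ran past the edge of the replicate 2 footprint. The footprint list carries no rank, so each is given by position alone. The sequences are GRCm38 (mm10) reference, which is the B6 strain, and the CAST allele of these mice was not read.

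The SP/KLF motif GGGGCGGGG, a GC-box bound by zinc finger factors of the Sp and Krüppel-like families, was found in 5 of the 10. Each line is written on the strand of the gene from 5′ to 3′, and capitals mark the motif on either strand. The stretches are cut to 30 bases where the annotation puts them in a UTR.
Rab3a (chr8:70754682-70754711, + strand): tgcatagaaagCCCCGCCCCtggctttgca
Erc1 first stretch (chr6:119848154-119848183, - strand): gtgtgcgcggGGGGCGGGGcgtggtgacgt
Erc1 second stretch (chr6:119848539-119848598, - strand): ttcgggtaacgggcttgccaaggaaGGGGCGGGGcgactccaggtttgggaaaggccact
Snap91 (chr9:86880449-86880478, - strand): agctgaggtgGGGGCGGGGatggggacgct
Unc13b (chr4:43058850-43058909, + strand): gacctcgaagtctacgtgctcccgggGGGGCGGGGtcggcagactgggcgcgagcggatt

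The EGR motif GCGTGGGCG, bound by the EGR zinc finger factors whose genes respond to neuronal activity, was found in 3 of the 10, at a vesicle SNARE, a priming factor and an endocytic phosphatase.
Vamp2 (chr11:69088467-69088496, + strand): ctgccgcgcccCGCCCACGCcgcagtaccc
Unc13a (chr8:71671763-71671792, - strand): tctccggctcCGCCCACGCcgcagcgtcag
Synj1 (chr16:91011237-91011266, - strand): gcacggtcccGCGTGGGCGgaaacggctcc

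The NRF1 motif GCGCATGCG, which NRF1 binds at many promoters of broadly used genes, was found in 2 of the 10. Capitals here cover 10 letters, because the motif lies on both strands with a shift of 1 base.
Stxbp5 (chr10:9901205-9901264, - strand): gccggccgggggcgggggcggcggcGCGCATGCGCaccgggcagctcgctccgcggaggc
Bsn (chr9:108190497-108190556, - strand): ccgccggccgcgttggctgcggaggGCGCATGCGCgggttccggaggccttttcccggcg

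The motif nearest to a TSS was that of Erc1, 2 bases upstream, followed by Rab3a at 6 and Vamp2 at 8 bases upstream. The Unc13a motif lay 21 bases upstream and the Synj1 motif 56 bases downstream. In the 500 bp around the TSS, footprint or not, the EGR letters occurred in the same 3 genes, 6.52% of the 46 beside 1.41% of all protein-coding genes and 2.21% of those with an open promoter. The SP/KLF letters occurred in 20 genes (43.5%, beside 18.8% of all and 27.4% of open promoters) and the NRF1 letters in 4 genes (8.70%, beside 3.11% and 5.01%). The ETS letters CCGGAAGT occurred in 1 gene, Syt5 (2.17%, beside 6.39% and 11.2%), and the letters AGGGGGCGC of a CTCF core in none (beside 2.48% of all). The promoters were GC-rich as well, with a median GC share of 65.1% beside 58.8% of all genes, and GC-rich motifs move with that share. Beside the 63.8% of all open promoters the difference in GC share was small. Different motifs may overlap, and a match is a description of the letters, not a shown binding site.

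The RE1 element is bound by REST, a repressor that keeps many neuronal genes silent outside neurons. It was searched as TTCAGCACC and GGACAGC with 2 free bases between them on either strand, with up to 3 of the 16 letters differing. In the 500 bp around the TSS it occurred in 4 of the 46 genes (8.70%), Syn1, Syp, Syt4 and Rph3a, beside 1.23% of all protein-coding genes. The matches of the synapsin gene Syn1, the vesicle tetraspan gene Syp and the Rab3 effector gene Rph3a are shown with the exact match found at the SNARE gene Snap25 and with that of the complexin gene Cplx2. They are written along the element, capitals mark letters that equal it, and the 2 free bases are always in lower case.
Snap25 (chr2:136714338-136714355): TTCAGCACCgcGGACAGC
Syn1 (chrX:20921133-20921150): TTCAGCACCgcGGtCAGa
Rph3a (chr5:121009614-121009631): gTCAGtACCacGGACAGC
Syp (chrX:7638737-7638754): TcCAGCACCgtGGACAGa
Cplx2 (chr13:54371727-54371744): TTCAGCACCacaGcgAGC

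The Snap25 match equalled all 16 letters and lay 869 bases downstream of the nearest TSS. It fell in a replicate 1 peak found in the longer list alone (signal 0.907) and wholly in no peak of replicate 2. A further Snap25 match with 2 differing letters lay 50 bases before it in the same peak, 819 bases from the TSS, and held a replicate 1 footprint. A main-list replicate 2 peak (chr2:136714201-136714300, signal 1.28) overlapped part of this further match and ended before the exact one. The Syn1 match, 138 bases upstream of the TSS, fell in the promoter peak of both libraries (1.00 and 2.56). The Syt4 match, with 1 differing letter, lay 216 bases downstream, in the promoter peak of both libraries (1.76 and 3.14). The Syp match, 24 bases downstream, fell in a replicate 1 peak of the longer list (1.15) and wholly in none of replicate 2. The main-list promoter peak of replicate 2 (2.66) overlapped only the edge of this match. The Rph3a match, 85 bases upstream, and the Cplx2 match, 387 bases downstream, each fell in a main-list peak of replicate 2 only (2.39 and 1.77), and the Cplx2 site also in a replicate 1 peak of the longer list (1.15).

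Of the main-list peaks in the gene windows described further on, 3 of 118 in replicate 1 (2.54%) and 6 of 297 in replicate 2 (2.02%) held an RE1 match, beside 0.613% and 0.582% of all main-list peaks. The replicate 1 matches lay at Syn1, Syt4 and Dnm1. The remaining matches, each with 3 differing letters, lay in peaks of Sv2c, Dnm1, Syp, Syt1 and Syn2 that were 3164 to 26607 bases from the nearest TSS. The Syt1 and Syn2 matches were in replicate 2 peaks of the longer list only. A footprint lay on the Syp match 3164 bases upstream in replicate 2 and on the further Snap25 match in replicate 1, and on no other match in either library.

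Although more often open, the promoters carried less signal than open promoters in general. The authors' peak signal is a density scaled to read depth, and where a gene has several promoter peaks the highest was taken. Over the 36 genes with a peak in both libraries the median was 1.66 in replicate 1 (quartiles 1.22 and 2.22) and 3.11 in replicate 2 (2.24 and 4.22). Over the 11152 protein-coding genes with a peak in both it was 2.26 (1.53 and 3.07) and 4.00 (2.59 and 5.54). The median of all genes was above 27 of the 36 in replicate 1 and above 26 in replicate 2. Ranked among all peaks of its own list, the median promoter of the machinery stood at percentile 62.8 and 85.9, and that of all open promoters at 77.9 and 90.8. Signals above 90% of the list were found at 4 of 36 genes (11.1%, beside 25.2% of all open promoters) in replicate 1 and at 10 (27.8%, beside 53.1%) in replicate 2. These shares are descriptions of 2 libraries and were not tested.

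**Figure D1:**
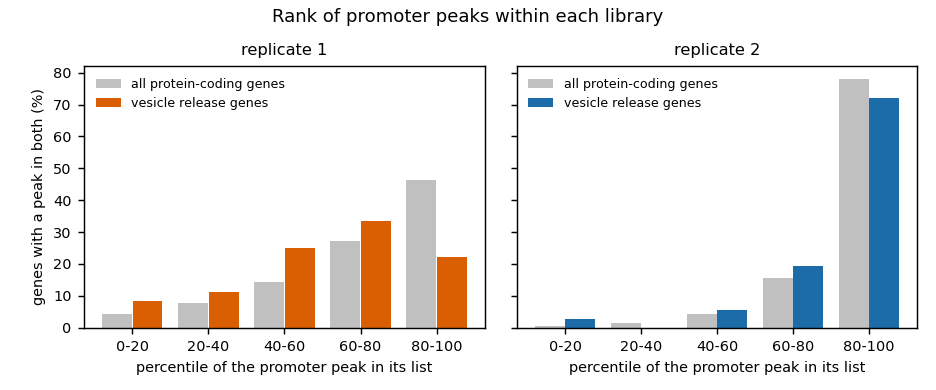
Share of genes (vertical axis, percent of genes with a promoter peak in both libraries) by the percentile of their highest promoter peak within the main list of each library (horizontal axis), for the 36 vesicle release genes (coloured) and for 11152 protein-coding genes (grey). In replicate 1 the highest bin holds 22.2% of the vesicle release genes and 46.2% of all, and in replicate 2 it holds 72.2% and 78.1%.

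Replicate 2 was higher at all 36 genes, with a median log2 ratio of replicate 2 to replicate 1 of 0.82 (quartiles 0.66 and 1.04), which is 1.76-fold. Over all protein-coding genes with a peak in both the median was 0.79 (1.73-fold), and 11051 of 11152 were higher in replicate 2. At 35 of the 36 genes the highest peaks of both libraries overlapped, and there the ratio ran from 1.00-fold at Rab3b to 2.56-fold at Syn1. The ratio was 2-fold or more at 9 of these 35 genes, beside 2336 of 10664 protein-coding genes with overlapping highest peaks. At Unc13b the highest peaks lay at different start sites, so its ratio is no change of a single promoter. The difference between the libraries was thus nearly the same at these genes as elsewhere, and it has no replicate of its own. By class the median ratio was 1.74-fold for vesicle proteins, 1.92-fold for SNAREs and regulators, 1.68-fold for the active zone and 1.95-fold for endocytosis.

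**Figure D2:**
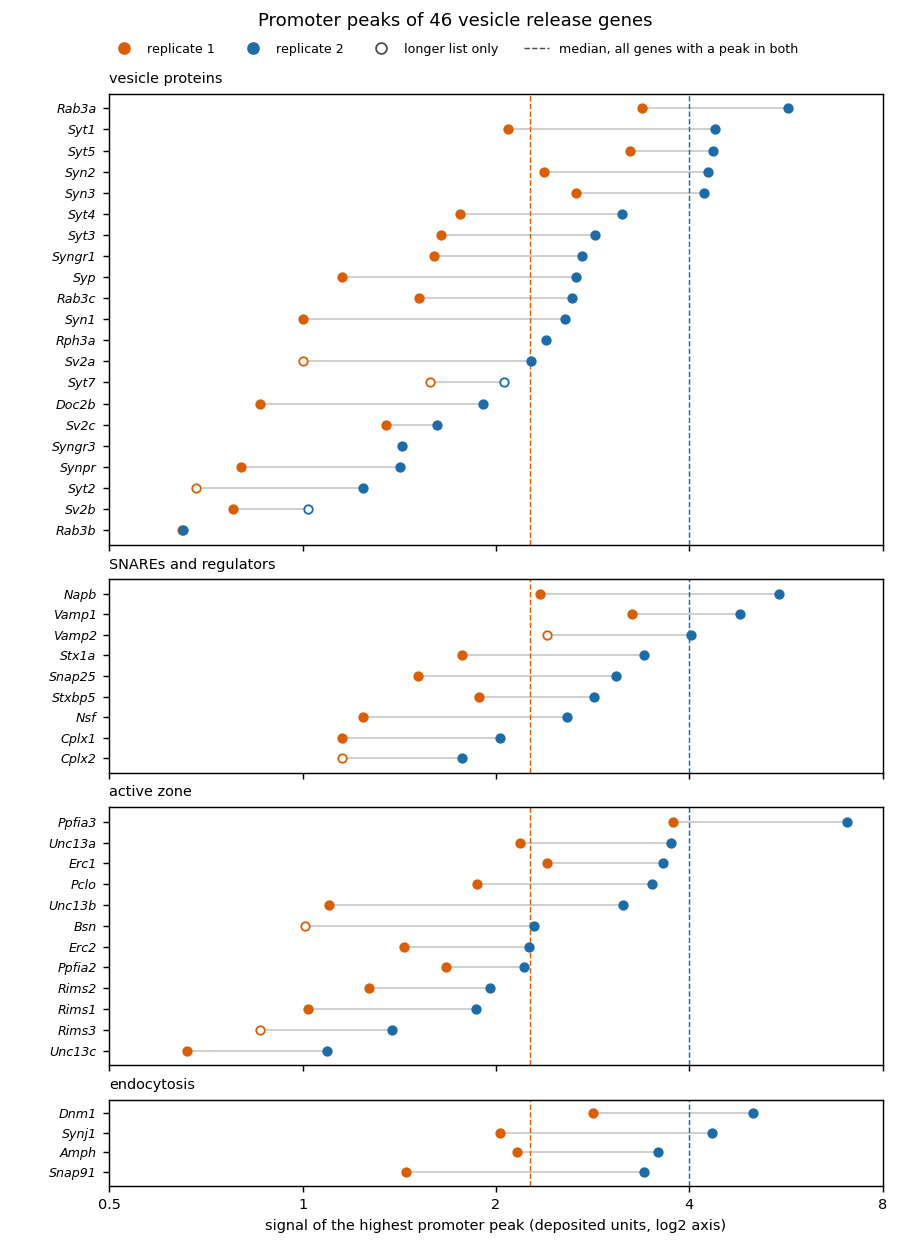
Signal of the highest promoter peak of each of the 46 genes (horizontal log2 axis, deposited units) by class, with replicate 1 in orange and replicate 2 in blue. Filled points are main-list peaks, open points were found in the longer list only, and dashed lines are the medians of all protein-coding genes with a peak in both libraries (2.26 and 4.00). Syngr3 and Rph3a have no replicate 1 point, Ppfia3 is the highest in both libraries, and the points of Unc13b are peaks at different start sites.

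Vesicle proteins had a promoter peak in both libraries for 15 of 21 genes (71.4%), with signals from 0.648 to 3.38 in replicate 1 and from 0.651 to 5.70 in replicate 2. All 3 synapsins, which tether vesicles to one another and to the cytoskeleton, were open in both libraries. The brain synapsin gene Syn1 measured 1.00 in replicate 1 and 2.56 in replicate 2. Syn2 had 2.38 and 4.27, and Syn3 had 2.66 and 4.21. Syn1 was the lowest of the 3 in both libraries.

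The vesicle tetraspans are small membrane proteins of the vesicle, with synaptophysin (Syp) as the one most used as a marker. Syp had a promoter peak of 1.15 in replicate 1 and of 2.66 in replicate 2. Synpr and Syngr1 were open in both libraries too. The replicate 2 promoter peak of Syngr1 also lies within 500 bp of a TSS of the ribosomal protein gene Rpl3. Syngr3 (chr17:24685092-24689955) had 1.43 in replicate 2, while replicate 1 had no peak in either list and no position in its cleavage table within 500 bp of a TSS. The table lists positions up to a false discovery rate (FDR) of 0.05.

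The SV2 glycoproteins, transporter-like proteins of the vesicle membrane, were the least often open group, at 1 of 3 genes. Sv2c had a promoter peak in both libraries, with 1.35 in replicate 1 and 1.62 in replicate 2. Sv2a, the target of the antiepileptic drug levetiracetam, had 2.27 in replicate 2 and in replicate 1 only a longer-list peak of 1.00. Sv2b was the only member called in replicate 1 alone, with 0.778 there and a longer-list peak of 1.02 in replicate 2. The deposited signal at Sv2b was thus higher in the library where the main list lacked it.

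The calcium sensors were open in both libraries at 5 of 7 genes. Synaptotagmin 1 (Syt1), the fast sensor of release in forebrain neurons, had 2.09 in replicate 1 and 4.39 in replicate 2. Syt5 had 3.23 and 4.35, the highest of the group in replicate 1 and just under Syt1 in replicate 2. Syt3 had 1.64 and 2.85, and Syt4, a form induced by activity, had 1.76 and 3.14.

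Synaptotagmin 2 (Syt2), the fast sensor of brainstem and of some inhibitory neurons, had 1.24 in replicate 2 and only a longer-list peak of 0.683 in replicate 1. The replicate 2 peak lay at an internal start site, 62.6 kb into the gene. At the first start site of Syt2 neither library had a main-list peak. Synaptotagmin 7 (Syt7), a slow sensor with high calcium affinity, had no main-list promoter peak in either library. Its promoter carried longer-list peaks of 1.58 in replicate 1 and 2.06 in replicate 2, more than 59.7% and 74.8% of all peaks in the main lists. Doc2b, a soluble sensor, was open in both libraries.

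The Rab3 proteins are small GTPases on the vesicle that bind RIM at the active zone, and Rab3a is the main form in brain. Rab3a (chr8:70754679-70758677) had the highest promoter rank among vesicle proteins, with 3.38 in replicate 1 and 5.70 in replicate 2. Rab3c was open in both libraries with lower signal, and Rab3b had the lowest promoter signal of all called members, 0.648 and 0.651. Rph3a, which encodes the Rab3 effector rabphilin (chr5:120940499-121010092), had 2.39 in replicate 2. In replicate 1 it had no promoter peak in either list and no listed position in the cleavage table.

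SNAREs and their regulators had a promoter peak in both libraries for 7 of 9 genes (77.8%), with signals from 1.15 to 3.26 in replicate 1 and from 2.03 to 5.52 in replicate 2. Snap25, a SNARE of the plasma membrane, had 1.51 in replicate 1 and 3.08 in replicate 2. Stx1a, its syntaxin partner, had 1.77 and 3.40. Vamp1, a vesicle SNARE, had 3.26 and 4.79, the highest of the class in replicate 1.

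Vamp2, the main vesicle SNARE of forebrain (chr11:69088490-69092384), had 4.03 in replicate 2, more than 90.9% of that main list. In replicate 1 its promoter was absent from the main list and had 2.40 in the longer list. That signal was higher than that of 80.4% of the replicate 1 main list. The absence of Vamp2 from the main list of replicate 1 therefore did not come with a low signal.

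Among the regulators, Napb, the brain form of the SNAP adaptor for NSF, had the largest replicate 2 value of the class, with 2.34 in replicate 1 and 5.52 in replicate 2. The ATPase gene Nsf had 1.24 and 2.58, and the tomosyn gene Stxbp5, which encodes a syntaxin-binding brake on fusion, had 1.88 and 2.84. The complexins clamp and then promote SNARE zippering. Cplx1 was open in both libraries, and Cplx2 had 1.77 in replicate 2 with only a longer-list peak of 1.15 in replicate 1.

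Active zone genes had a promoter peak in both libraries for 10 of 12 (83.3%), with signals from 0.660 to 3.77 in replicate 1 and from 1.09 to 7.05 in replicate 2. Ppfia3, which encodes liprin-alpha-3, a scaffold adaptor (chr7:45339122-45367019), had the highest promoter of all 46 genes in both libraries, 3.77 and 7.05. Its peak also lies within 500 bp of a TSS of the gene Mtag2. The scaffold gene Erc1 had 2.40 and 3.64, and its relative Erc2 had 1.44 and 2.25.

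The scaffold giants differed in their calls. Piccolo (Pclo) was open in both libraries, while Bassoon (Bsn) had 2.29 in replicate 2 and only a longer-list peak of 1.01 in replicate 1. The RIM proteins link Rab3, Munc13 and calcium channels. Rims1 had 1.02 in replicate 1 and 1.86 in replicate 2. Rims2 had 1.27 and 1.96 at an internal start site 461.3 kb into the gene, and 1.17 and 1.88 at its first start site. Rims3 had 1.38 in replicate 2 and a longer-list peak of 0.860 in replicate 1.

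The Munc13 priming factors, which open syntaxin for SNARE assembly, were open in both libraries at all 3 genes. Unc13a, the main forebrain form, had 2.18 in replicate 1 and 3.75 in replicate 2, and Unc13c, a form known from cerebellum, was the lowest of the class. Unc13b was counted open in both through internal start sites alone. Its first TSS cluster (chr4:43058953) had 3.15 in replicate 2 and, in replicate 1, only a longer-list peak of 1.60. The clusters 56.2 and 150.5 kb further in had 0.660 and 1.10 in replicate 1 and 1.22 and 2.04 in replicate 2.

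Endocytosis genes had a promoter peak in both libraries for 4 of 4, with signals from 1.45 to 2.83 in replicate 1 and from 3.40 to 5.02 in replicate 2. Dynamin 1 (Dnm1), the GTPase that pinches off the vesicle, had 2.83 in replicate 1 and 5.02 in replicate 2. Synj1, which encodes the lipid phosphatase synaptojanin that helps shed the clathrin coat, had 2.03 and 4.34. Amphiphysin (Amph), which bends membrane and recruits dynamin, had 2.16 and 3.58. The clathrin adaptor gene Snap91 was the lowest of the class in both libraries. The classes were not tested against each other, and the share for endocytosis rests on 4 genes.

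Beyond these 46, a list of 66 further genes of the pathway that were found in the annotation was read the same way. A promoter peak in both libraries was present for 51 of 66 (77.3%), at 12 of 21 vesicle genes, 9 of 12 SNARE genes, 8 of 11 active zone genes and 22 of 22 endocytosis genes. The latter include clathrin, its AP-2 adaptor and the endophilins, which most cell types use. No promoter peak was called in either library at Syngr2, Syt6, Cplx3 and Unc13d. The median promoter signal of the 51 open genes was 2.10 in replicate 1 and 4.15 in replicate 2, above the 1.66 and 3.11 of the 46 genes.

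The 10 genes without a main-list call in both libraries were read below the peak threshold in the cleavage table. Among the 9 not called in replicate 1, 7 had a longer-list promoter peak, from 0.683 at Syt2 to 2.40 at Vamp2, and a lowest FDR within 500 bp of a TSS from 0.000651 at Vamp2 to 0.0245 at Sv2a. Syt7 had 0.000955 in replicate 1 and 0.000690 in replicate 2, and Sv2b had 0.00718 in replicate 2. Among called members the highest of these FDR values was 0.000457 in replicate 1 and 0.000352 in replicate 2. Among all called protein-coding genes it was 0.000894 and 0.000895, and values of 0.001 or less were also listed at 280 uncalled genes in replicate 1 and 163 in replicate 2. The lowest FDR at an uncalled gene was 7.61e-17 in replicate 1 and 9.52e-41 in replicate 2. Every called gene thus had an FDR of 0.001 or less near a TSS, but such an FDR was not enough for a call. Rab3b was called with a signal of 0.648 and an FDR of 0.000242, and of the 9 uncalled members only Syngr3 and Rph3a had nothing listed in replicate 1. The sources used here name neither the peak caller nor its thresholds.

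Start sites of a gene were also read apart. TSSs within 1000 bp of each other were joined into 147 clusters, and 34 of the 46 genes had more than 1 cluster. The first cluster was open in both libraries at 35 of 46 genes (76.1%, against 46.8% of all protein-coding genes). Of 101 later clusters, 3 were open in both libraries (2.97%, against 6.16% of later clusters of all genes), namely 2 of Unc13b, given with its values above, and 1 of Rims2, 461.3 kb into the gene, with 1.27 and 1.96. In replicate 2 alone or with replicate 1, 14 later clusters were open. Of the later clusters, 35 start a coding transcript, and 2 of these were open in both. The matching shares over all protein-coding genes are not given for these last counts, so they are not read as high or low.

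Peaks were then counted in a window of the gene and 10 kb before and after it. The windows held 118 main-list peaks in replicate 1 and 297 in replicate 2, and 104 from replicate 1 were shared, with 1 bp or more in common with a replicate 2 peak. The median gene had 2 such shared peaks, against 1 over all protein-coding genes. At least 1 was present at 40 of the 46 genes and none at 6, while 7187 of all 21938 genes had none. The genes are long, with a median span of 69.3 kb against 17.4 kb, and per 100 kb of window the median was 1.56 shared peaks against 2.11. The count of shared peaks per gene was therefore higher than the background and their density lower. With all peaks of a library counted, the median density was 1.73 per 100 kb in replicate 1, against 2.27 over all genes. In replicate 2 it was 5.97 against 4.28, so there the density was above the background. By class the median density of shared peaks was 1.29 for vesicle proteins, 2.25 for SNAREs and regulators, 0.707 for the active zone and 1.44 for endocytosis.

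Among vesicle proteins the most shared peaks were found at Syn3 (6), Syt3 (5) and Sv2c (4). Among SNAREs and regulators they were found at Stxbp5 (4), Vamp2 (4) and Nsf (2, as at Snap25 and Stx1a). Among active zone genes Rims2 had 8, Rims1 had 4 and Erc2 had 3, as did Unc13a, Unc13b, Ppfia2 and Ppfia3, and among endocytosis genes Amph and Synj1 had 3 each. Syn3 had 6 peaks in replicate 1 and 17 in replicate 2, and Rims2 had 8 and 16. Erc2, the longest of the 46 genes at 856 kb, had 3 and 16. More peaks were listed in replicate 2 at 40 of the 46 genes and equal numbers at 6. The main list of replicate 2 is longer throughout (66512 peaks against 29700). The matching share over all protein-coding genes is not given, so the count is not read as particular to these genes.

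**Figure D3:**
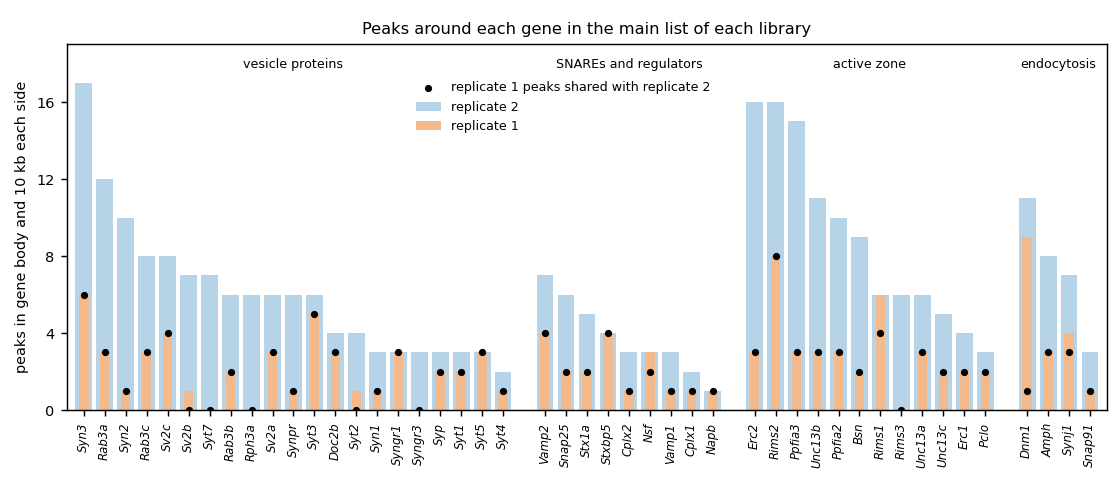
Number of main-list peaks in the window of the gene plus 10 kb before and after it (vertical axis) for each of the 46 genes by class, with wide blue bars for replicate 2, narrow orange bars for replicate 1 and black points for replicate 1 peaks that overlap a replicate 2 peak. The black point meets the top of the orange bar at most genes, and at Dnm1 it stands at 1 beneath bars of 9 and 11.

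A shared peak farther than 1000 bp from any TSS was present at 21 of 46 genes (45.7%), against 26.0% of all protein-coding genes. There were 33 such distal peaks, 18 in introns, 5 in exons, 6 upstream and 4 downstream of the gene. Pooled over windows the density of shared distal peaks was 0.400 per 100 kb, against 0.570 over all genes. With all distal peaks of a library counted, it was 0.485 against 0.613 in replicate 1. In replicate 2 it was 2.00 against 1.95, about equal to that of all genes. The median signal of the 33 shared distal peaks was 1.23 in replicate 1 and 2.07 in replicate 2, with replicate 2 higher at 30 of 33. By class a shared distal peak was present at 8 of 21 vesicle genes, 6 of 9 SNARE genes, 6 of 12 active zone genes and 1 of 4 endocytosis genes.

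The highest of these lay 8.65 kb past the Vamp2 start (chr11:69097046-69097243), with 3.58 in replicate 1 and 7.67 in replicate 2, inside the neighbouring clock gene Per1. The other 3 shared peaks of the Vamp2 window lay at TSSs of Per1, so none of the 4 was within Vamp2. A peak 7.81 kb upstream of Stx1a (chr5:135015602-135015740) had 2.70 and 4.33. An intron of Amph held a peak 153.97 kb into the gene (chr13:19102041-19102300) with 2.49 and 4.33.

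Further distal peaks lay at an intron of Syn3, 34.87 kb in, with 2.07 in replicate 1 and 2.96 in replicate 2, and 21.69 kb past the Syt3 start with 1.76 and 4.18. Upstream of Rab3b a peak at 8.89 kb had 0.895 and 3.59, more in both libraries than the 0.648 and 0.651 of the Rab3b promoter. Upstream of Snap25 a peak at 1.17 kb had 1.47 and 3.40, about the level of the Snap25 promoter. Peaks of a window need not act on its gene, since no contact or expression data were analysed here.

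At Syt7 (chr19:10389090-10453180) the replicate 1 main list had no peak in the window and replicate 2 had 7. The highest of these were a pair of intron peaks 8.89 and 9.32 kb from the start, each with a signal of 3.18. The longer list had 9 replicate 1 peaks in this window, from 0.789 to 1.58, and all 9 overlapped a longer-list peak of replicate 2. The same sites were thus found in both libraries under the longer list, and the main list of replicate 1 held none of them.

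Dnm1 (chr2:32308471-32353338) was the gene where the libraries differed most in position. Apart from the promoter, all 8 replicate 1 peaks lay 44.14 to 54.10 kb from the first start site, at the 3′ end of the gene and in the neighbouring gene Golga2, with signals from 0.424 to 1.20. The other 10 replicate 2 peaks lay from 9.69 kb upstream to 11.98 kb into the gene, with signals from 1.08 to 4.27. Of the 14 replicate 1 peaks of all 46 windows that lacked a replicate 2 partner, 8 were these Dnm1 peaks. The longer list added replicate 2 peaks of 1.81 and 1.68 at 45.01 and 48.70 kb and a replicate 1 peak of 2.25 at 9.67 kb upstream, and 4 replicate 1 peaks were then shared.

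**Figure D4:**
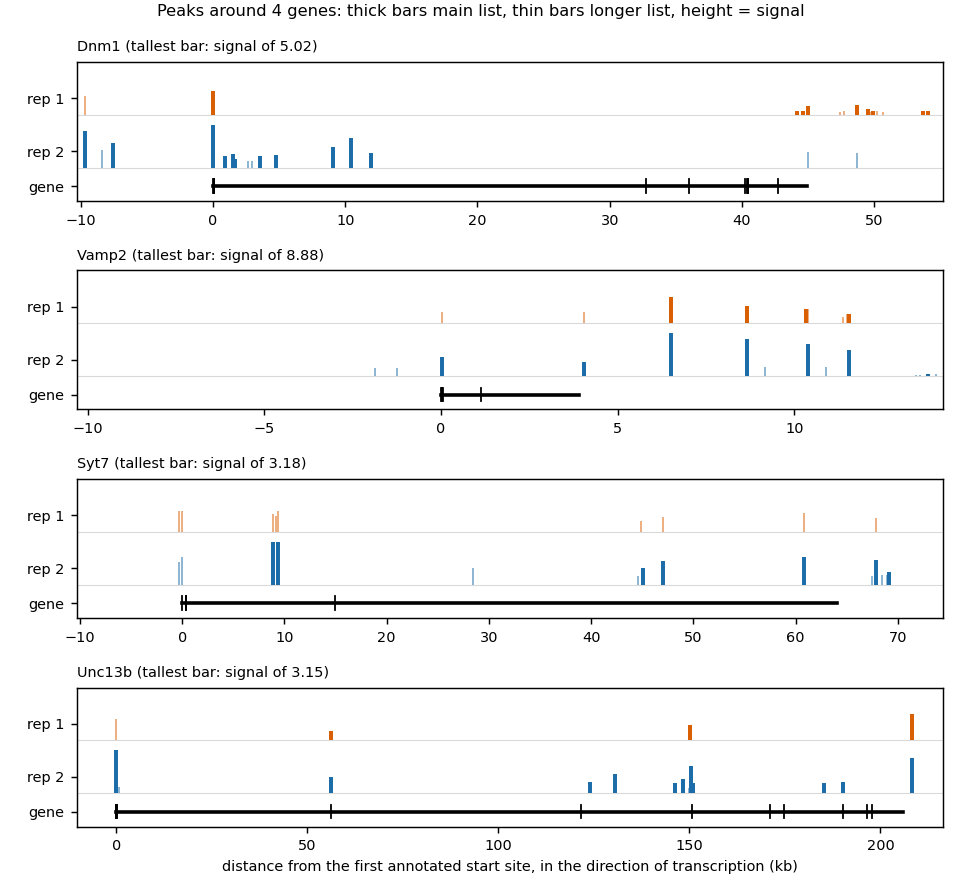
Peaks around Dnm1, Vamp2, Syt7 and Unc13b by distance from the first annotated start site in the direction of transcription (horizontal axis, kb), with replicate 1 in orange and replicate 2 in blue. Bar height is the peak signal on a common scale within each gene, thick bars are main-list peaks, thin bars longer-list peaks, and the black line with ticks is the gene with its start sites. At Dnm1 only the promoter carries thick bars in both libraries, and at Syt7 replicate 1 has thin bars only.

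Footprints in the highest promoter peak numbered 3 in replicate 1 and 6 in replicate 2 at the median of the 36 genes, and 4 and 5 over all protein-coding genes with a peak in both. Per 100 bp of peak the medians were 1.45 and 1.75, beside 1.36 and 1.76. The most footprints were found at Erc1 in replicate 1 (11) and at Ppfia2 in replicate 2 (11). None was found at Sv2c in replicate 1, where the peak is 50 bp wide, or at Rab3b in replicate 2.

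The promoters also differed by class in what they are made of. The ratio of observed to expected CpG in the 500 bp around the TSS, which is high in CpG islands, had a median of 0.65 for vesicle proteins, 0.72 for SNAREs and regulators, 0.84 for the active zone and 0.87 for endocytosis. All protein-coding genes had a median of 0.64 and those with an open promoter 0.82. The 36 members with a promoter peak in both libraries had 0.73, below that of all open promoters. A ratio above 0.6 was found at 32 of the 46 genes (69.6%, beside 53.3% of all). The 3 SV2 genes had a median of 0.46 and the 7 calcium sensors 0.52. Among the sensors Syt1 had 0.32, and Syt7, the gene with no main-list promoter peak, had 1.03.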

How the data were processed

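For each of 2 DNase-seq libraries the authors deposited 2 peak lists, a footprint list and a cleavage table on mm10, each made from the alignments of that library, per the deposited text listing. The sources used here name no aligner, caller, version or threshold. The signal of a peak is the authors' read-depth normalized density, with values in whole steps of 0.01178 for replicate 1 and 0.009709 for replicate 2, so library totals are known only if a step is the value of 1 tag. The score of the deposited footprints is constant, and the p-value column of the deposited cleavage table is an FDR per interval up to 0.05.

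Promoter peaks, windows and footprints were counted for all 21938 protein-coding gene records (21911 names) of GENCODE M21 with Python 3.11.15, numpy 2.4.6 and pandas 2.3.3. The list with fewer peaks served as the main list, and calls that overlap within a list were counted as listed. Sequences were read from GRCm38 with pysam 0.24.0, and 13 motifs were searched. The overlap and motif code was tested on simulated data with known answers. With 1 group no test was run, and members are set beside all genes. The members and lists were chosen with earlier results of these data known. Genes were named if they lacked a promoter peak in either library, were among the 3 of a class with the highest promoter rank or the most shared peaks, or had an RE1 match in a peak. Genes named as examples of a role, Rab3b as the lowest and the distal peaks with the most signal were chosen after their values were seen. Of 67 further pathway genes listed, 66 were found by name (not Vamp7). The alternatives were other TSS and gene windows, the longer list, equal list lengths, coding transcripts, peak midpoints, a 50% overlap and leaving out each library.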

Additional observations from a re-analysis of the deposited data

How the results depend on the processing

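The number of genes with a promoter peak in both libraries was 34 to 44 of 46 over all settings, and 37 or 44 with a library left out. Here and in each of the 4 classes it stayed within 1.5 times its value under every alternative tried. For these counts only a fall could pass that margin, since 1.5 times each count exceeds the number of genes. A wider TSS window or a library left out can only keep or raise the count, so these settings could not move it. Of 59 alternative values over 8 results, 2 moved by more than the margin, which was 1.5 times for counts. For the medians of peaks and footprints it was the SD between the values of each library alone. The median log2 ratio has no value for 1 library alone, and its margin was the ratio divided by the square root of 2. With 2 libraries the SD between them is wide, so a median can double within it. Without replicate 1 the median number of peaks in a window was 6, and without replicate 2 it was 2. After subtracting the median of all protein-coding genes, the median log2 ratio of promoter signal fell from 0.82 to 0.03. In the window counts, peaks farther than 1000 bp from any TSS alone gave a median of 0, the gene body alone 1, and 50 kb to each side or the longer list 4, beside medians of 0, 1, 3 and 2 over all genes. The median number of footprints, 4.5 as the mean of both libraries, was 3 to 6 with a library left out. No paired analysis was possible because the labels give only 1 group. Over the 35 genes whose highest promoter peaks overlapped, an alternative chosen after seeing the data, the median log2 ratio was 0.81. Replicate 1 lists fewer peaks of every kind, and an uncalled site there is not shown to be closed, since 7 of the 9 uncalled members had a peak in its longer list.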

Other observations

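Some promoter peaks of the machinery lie near start sites of other genes. At 8 of the 46 genes a TSS of another gene lay within 500 bp of the highest promoter peak of either library. These were Rpl3 at Syngr1, from the replicate 2 peak alone, and Mtag2 at Ppfia3. The rest were the less characterised Gm17733 at Syn2, Gm5087 at Synpr, 1500012K07Rik at Sv2b, Gm46210 at Stxbp5, C230021G24Rik at Ppfia2 and 4930404I05Rik at Synj1. Of the window peaks, 17 of 118 in replicate 1 and 29 of 297 in replicate 2 lay at the promoter of another gene and not at that of the member. The matching shares over all protein-coding genes were not counted, so these counts are not set against a background. Of the 3 shared peaks in the Sv2a window, none lay at Sv2a: 1 was at the splicing factor gene Sf3b4 and a pair of overlapping calls was at Bola1. Both shared peaks of the Bsn window were likewise at start sites of Apeh and 4930447F24Rik.

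Among the 35 genes whose highest promoter peaks overlapped, the signal differed most between the libraries at Syn1 (2.56-fold), Napb (2.36-fold), Snap91 (2.35-fold) and Syp (2.30-fold), all higher in replicate 2. The smallest changes after Rab3b were at Sv2c (1.20-fold), Ppfia2 (1.32-fold) and Syt5 (1.35-fold). With 2 libraries these ratios have no replicate, and each was picked after its value was seen.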
